A study of Ovis aries and Mus musculus with 10 samples.

Results

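miR-143 and miR-145 are a pair of microRNAs encoded side by side and processed from 1 primary transcript. They were taken from 10 Agilent microRNA arrays of mammary gland as the probes whose annotated name was mmu-miR-143 or mmu-miR-145, with control spots left out. They are 2 of the 567 mouse miRNAs on the array. The 5 sheep arrays held RNA from ewes in cycle day 15, at gestation days 14, 64 and 125, and at lactation day 60. The 5 mouse arrays held RNA from CD1 mice, either virgin, at gestation days 10 and 17, or at lactation days 2 and 10. None of the animals was treated. Each stage and day was 1 array, and neither the sheep breed nor whether animals were pooled is given in the sources used here. The probes were designed on mouse sequence for both species.

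The primary transcript of miR-143 and miR-145 is driven by serum response factor and myocardin, and the mature miRNAs are abundant in smooth muscle, where they repress growth-promoting transcription factors such as KLF4 and KLF5 and help hold cells in the contractile state. In a mammary gland, smooth muscle proteins are found in the walls of blood vessels and in the myoepithelial cells that surround the alveoli and squeeze out milk. Once the shared transcript is cut, the hairpins are processed and their mature strands decay separately, so mature levels need not move together.

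Each miRNA was read by 2 probes of 10 spots each, 20 spots per array. In the mouse build mm9 that the file headers name, the miR-143 probes matched chr18:61808853-61808868 and the shorter of them ended at 61808867. The miR-145 probes matched chr18:61807520-61807533, and the shorter of them ended at 61807532. The targets are separated by 1319 bases. Of the other strands of these hairpins, miR-143* was not among the miRNAs measured. The miR-145* probes, at chr18:61807481-61807501, were detected on 0 of 10 arrays. Their signal, averaged over the 4 probes, was between -4.85 and 1.71 intensity units, and single probes read between -9.12 and 4.94.

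Arrays differed in brightness. Among the 94 miRNAs that every array detected, the 75th percentile was 788 to 1998 intensity units in sheep and 246 to 937 in mouse, and values below are divided by that percentile (scaled signal). A miRNA was counted as well above background on an array where at least 1 probe had over 50% of its spots marked so by the scanner software. The software reported 156 to 208 miRNAs as detected per array in sheep and 125 to 198 in mouse. The number of arrays limits the precision throughout, and slide and stage were partly tied, since slide 2 held mouse virgin and mouse gestation day 10, and slide 1 held the remaining 8 arrays.

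miR-143 was measured well above background on all 10 arrays. Its signal before scaling was 655, 859, 902, 246 and 270 intensity units in sheep in cycle, at gestation days 14, 64 and 125 and in lactation, against 111, 197, 498, 137 and 92.2 in mouse as virgin, at gestation days 10 and 17 and at lactation days 2 and 10. Spots of 1 array agreed closely, with a coefficient of variation from 1.43% to 6.34%. Scaled, miR-143 was 0.328, 0.469, 0.578, 0.262 and 0.342 in sheep, against 0.186, 0.281, 0.532, 0.348 and 0.375 in mouse, in the same stage order. Gestation day 64 was the highest sheep array and gestation day 125 the lowest, 2.21-fold apart. In mouse, gestation day 17 was the highest and virgin the lowest, 2.86-fold apart. The sheep values, -1.39 ± 0.45 on the log2 scale, and the mouse values, -1.62 ± 0.56 (SD, n = 5 each), overlapped. This course depends on the scaling: in the authors' deposited table, which multiplies each array by another constant, miR-143 was highest in lactation in sheep (488) and at lactation day 10 in mouse (457), with 396 at sheep gestation day 64 and 297 at mouse gestation day 17.

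miR-145 was near background on several arrays and had a wide range. Before scaling it was 100, 162, 319, 25.5 and 40.1 intensity units in sheep, against 4.16, 12.5, 55.4, 7.83 and 4.15 in mouse. The coefficient of variation between spots of a probe on 1 array ran from 3.19% to 344%. It was well above background on 5 of 5 sheep arrays, though at gestation day 125 on 9 of 20 spots and 1 probe only. In mouse it was well above background at gestation day 17 alone, and detected on 3 of 5 arrays, not in virgin or at lactation day 10. Scaled, miR-145 was 0.0501, 0.0883, 0.205, 0.0272 and 0.0509 in sheep, against 0.00696, 0.0178, 0.0592, 0.0199 and 0.0169 in mouse. Values below a floor of 0.0290 cannot be ordered, and those were sheep gestation day 125 and 4 of 5 mouse arrays, all but gestation day 17. Mouse gestation day 17 was at least 1.35-fold higher than virgin, at least 1.57-fold higher than gestation day 10 and at least 1.24-fold higher than lactation day 2. Each was set against the higher of 2 values on the dim array. These were the miR-145 signal averaged over its probes and the lowest probe signal of any miRNA well above background. For lactation day 10 no such fold could be given, because that lowest signal exceeded the day 17 value. These lower limits hold for the scaling used here only. In the authors' deposited table miR-145 read 33.0 at mouse gestation day 17 and 24.1 at day 10, a smaller fold than the limit given above. Both miRNAs had their highest scaled value on the same array in each species, sheep gestation day 64 and mouse gestation day 17, though for miR-145 in mouse the bound at lactation day 10 leaves that order unsettled. How many of all miRNAs peaked on these arrays was not counted, and miR-26a and miR-205 also did so in both species.

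**Figure D1:**
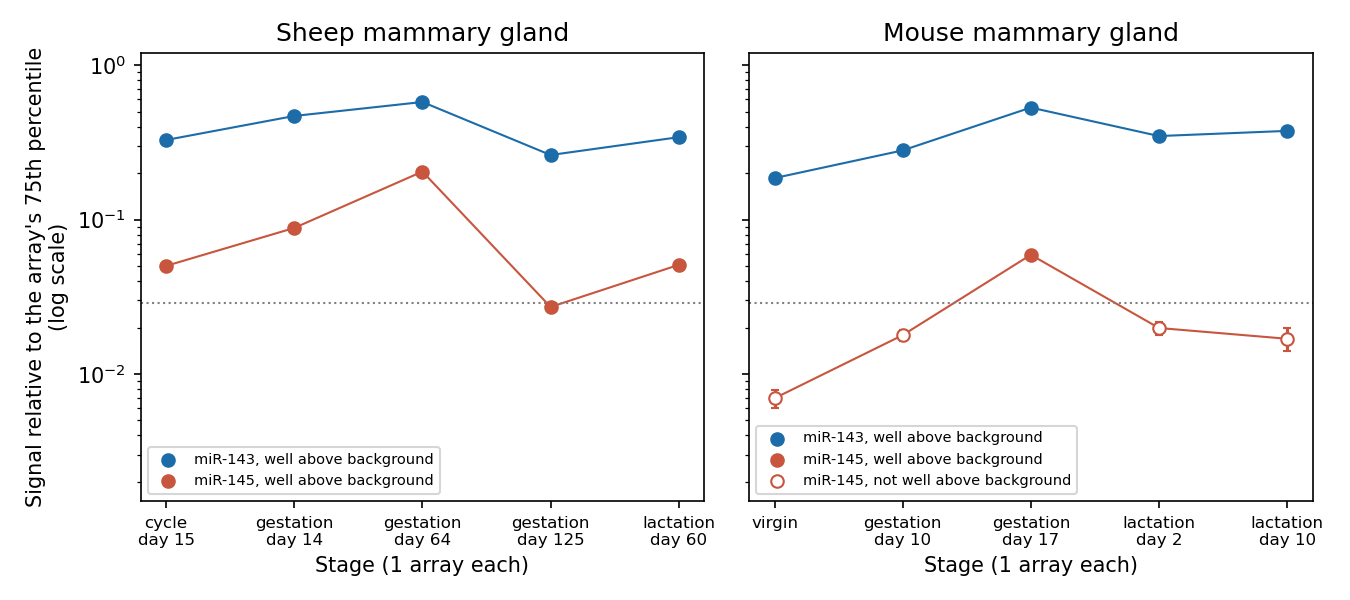
miR-143 and miR-145 signal relative to each array's 75th percentile of shared miRNAs (y axis, log scale) by stage (x axis, 1 array each), with sheep left and mouse right. Points are array values, bars the standard error between spots, open points not well above background, and the dotted line the floor of 0.0290. The highest points of both miRNAs are at sheep gestation day 64 and mouse gestation day 17, and miR-145 lies below the floor at sheep gestation day 125 and on 4 mouse arrays.

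The central question was whether the co-transcribed pair keeps a fixed ratio. Within an array the ratio does not depend on scaling, but it depends on the probes, so its size is not a ratio of molecules and only its changes between arrays are read. In sheep, miR-145 had 15.3% of the miR-143 signal in cycle, 18.8% at gestation day 14, 35.4% at day 64, 10.4% at day 125 and 14.9% in lactation. The ratio therefore spanned 3.42-fold over the 5 arrays, with a mean of -2.53 ± 0.65 on the log2 scale (SD, n = 5). Gestation day 64 stood highest and gestation day 125 lowest, while cycle and lactation lay within 1 percentage point of each other. The error between spots was 0.015 to 0.060 on the log2 scale in sheep, which covers spots within an array and not animals.

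As scaled here, miR-145 at sheep gestation day 64 was higher by more than miR-143 was. Relative to cycle, gestation day 14, gestation day 125 and lactation, scaled miR-145, taken without the floor, was 4.08, 2.32, 7.53 and 4.02-fold higher at day 64, whereas scaled miR-143 was 1.76, 1.23, 2.21 and 1.69-fold higher. The ratio, which does not depend on scaling, was 2.32, 1.88, 3.42 and 2.38-fold higher. The levels do depend on it, and the day 125 miR-145 value lies under the floor. In the authors' deposited table miR-143 read 396 at day 64, against 384, 311, 413 and 488 on those arrays. There miR-145 read 140 at day 64, against 58.7, 58.5, 42.8 and 72.7. The longer miR-145 probe, well above background on all 5 sheep arrays, put day 64 highest and day 125 lowest against either miR-143 probe, with spans of 3.05 and 3.30-fold. The shorter miR-145 probe had 0 of 10 spots well above background at day 125, so it gives no fold there, and its signal of 16.6 enters the day 125 mean. No stage had a second array, so day 64 rests on 1 array and was not tested against the other stages.

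In mouse, the processed signal of miR-145 was 3.75% of that of miR-143 in virgin, 6.36% at gestation day 10, 11.1% at gestation day 17, 5.71% at lactation day 2 and 4.50% at lactation day 10. The error between spots was 0.045 to 0.246 on the log2 scale in mouse. Gestation day 17 is the only mouse ratio with both miRNAs well above background. For the other 4 arrays the ratio has an upper bound only, 23.7% in virgin, 13.5% at gestation day 10, 13.8% at lactation day 2 and 20.2% at lactation day 10. Each of these bounds exceeds the 11.1% of gestation day 17 and the lowest sheep ratio, so the mouse ratios cannot be ordered and no span is given for them.

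**Figure D2:**
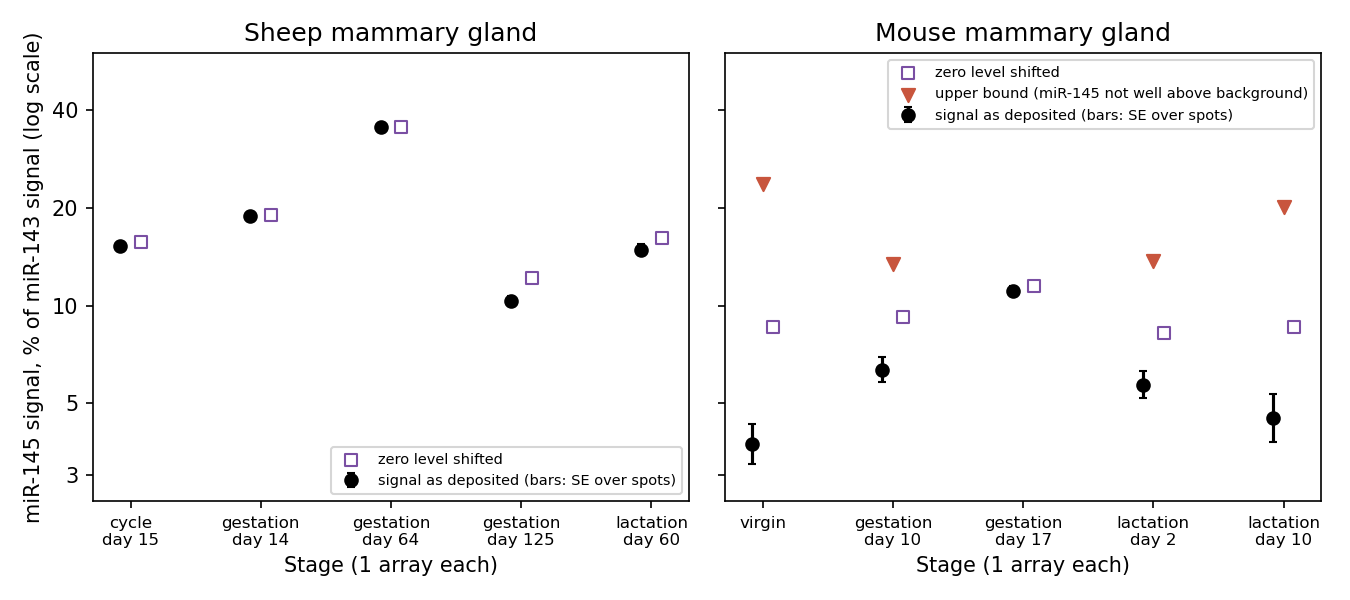
miR-145 signal as a percent of miR-143 signal (y axis, log scale) by stage (x axis, 1 array each), with sheep left and mouse right. Filled points are the deposited signals with the standard error between spots, squares the values with the zero level shifted, and triangles upper bounds where miR-145 was not well above background. Sheep values run from 10.4% at gestation day 125 to 35.4% at day 64, and the 1 mouse array with miR-145 well above background has 11.1%. The bounds of the other 4 mouse arrays, 13.5 to 23.7%, lie within the sheep range.

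Whether the ratio differed between sheep and mouse could not be settled, because 4 of the 5 mouse ratios are bounds. Taking the processed signals as given, the mean log2 ratio was -2.53 in sheep and -4.10 in mouse, a difference of 1.57, and an exact two-sided permutation test of 5 against 5 arrays gave p = 0.0159, where 0.00794 is the smallest that 252 arrangements allow. Adjusted over the 2 ratio tests made, p was 0.0317. With slide 1 alone the difference was 1.40 (exact permutation p = 0.0357), and with species exchanged within stage class the exact p was 0.0333. The outcome depended on how dim miR-145 signal was handled, as shown by alternatives of which all but normexp were chosen after seeing the data. With the 4 mouse ratios at their upper bounds the difference was 0.14, with an exact permutation p of 0.698. With values below the floor set to it, the difference was 0.77 with an exact permutation p of 0.0556, and over the arrays where both miRNAs were detected it was 1.23 with an exact permutation p of 0.0714. With normexp background correction, run with an offset of 50 intensity units, it was -0.07, with an exact permutation p of 0.778. That offset is larger than the miR-145 signal on the 4 mouse arrays with bounds. It is also larger than that signal at sheep gestation day 125 (25.5) and in sheep lactation (40.1). This setting therefore cannot show whether dim miR-145 differs.

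The zero level bears on the mouse arrays in particular. The 300 miRNAs never detected had a median signal below 0 on every array, between 2.09 and 6.25 intensity units below, while mouse miR-145 was as low as 4.15 units. With that median set to 0 on each array, a change also chosen after seeing the data, the ratio was 15.8, 19.0, 35.6, 12.1 and 16.1% in sheep, against 8.59, 9.23, 11.5, 8.27 and 8.59% in mouse. The span was then 2.93-fold in sheep. The species difference was 1.00 on the log2 scale, with an exact permutation p of 0.00794, the smallest possible. On the mouse arrays where miR-145 was not well above background, the shift itself supplied part of the miR-145 value. It was 5.88 of 10.0 units in virgin and 4.12 of 8.27 at lactation day 10. The difference and its p therefore rest partly on the shift and do not settle the species question. Whether probe match to sheep sequence contributes to a difference between the species was not tested.

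Between lactation and gestation the ratio did not pass a test. The mean log2 difference was -0.54, with -0.36 within sheep and -0.73 within mouse, and an exact two-sided permutation test within species gave p = 0.292, the smallest possible being 0.0417 over 24 arrangements. The adjusted p over the 2 ratio tests was 0.292. Single lactation arrays lay on both sides of single gestation arrays in sheep, with log2 differences from -1.25 to 0.52. Both mouse lactation ratios are bounds, and with bounds in place of the dim ratios the mean difference was 0.046 (exact permutation p = 0.917).

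Levels were also compared over all 213 miRNAs detected on at least 3 arrays, with limma and Benjamini-Hochberg adjustment. Between sheep and mouse, 21.6% of the 213 passed the threshold of 0.05. Of the 2 members 0 passed in any of the 5 level comparisons, and 0 had an unadjusted limma p under 0.05, which 76 of 213 miRNAs had between sheep and mouse, 34 between lactation and gestation, 40 between lactation and not pregnant, 5 between gestation and not pregnant and 16 for the interaction of stage with species. miR-143 differed by 0.20 ± 0.30 (log2, standard error; adjusted p = 0.654) and miR-145 by 0.88 ± 0.54 (adjusted p = 0.311), each with overlapping groups, as against 17.4% of all tested miRNAs whose 5 and 5 arrays did not overlap. Mouse miR-145 at the floor on 4 arrays makes that difference a fitted value and not a fold, and it moved with the processing. It was 0.0011 with normexp, 1.25 with the 75th percentile of all miRNAs, 1.65 with a floor 4 times lower and 2.13 without scaling, with adjusted p between 0.0608 and 0.932 in these 4 settings.

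Stage classes were compared next, with sheep in cycle and virgin mice together as not pregnant. Between lactation and gestation 2.82% of the 213 passed, with miR-143 at -0.13 ± 0.35 (adjusted p = 0.992) and miR-145 at -0.58 ± 0.63 (adjusted p = 0.774). Lactation against not pregnant gave 0.56 ± 0.42 for miR-143 (adjusted p = 0.538) and 0.02 ± 0.77 for miR-145 (adjusted p = 1), with 3.76% passing overall. Gestation against not pregnant gave 0.69 ± 0.39 and 0.61 ± 0.70 (adjusted p = 1 for both), with 0.469% passing. The change from gestation to lactation, sheep minus mouse, was -0.18 ± 0.77 for miR-143 and -0.15 ± 1.54 for miR-145, where 0.939% of all miRNAs passed and the adjusted p was 1 for both members. The sign of several of these differences depended on the scaling or the slide.

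Other neighbouring miRNA pairs give a scale for the sheep ratio. Of 54 pairs listed from general knowledge of genomic clusters, 52 were on the array and 27 had both members well above background on all 5 sheep arrays, including miR-143 with miR-145. The SD of the log2 ratio over the 5 sheep arrays was 0.653 for miR-143 with miR-145, while 21 of the 26 other pairs were smaller and 5 were larger, with a median of 0.376. The smallest was miR-24 with miR-27b at 0.119 and the largest miR-30a with miR-30c at 1.24. miR-199a-5p with miR-214, a stromal pair also made from 1 transcript, had 0.735. Several listed miRNAs have further copies elsewhere in the genome, and miR-145 was as low as 25.5 intensity units in sheep, so these SDs are a description with no test.

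**Figure D3:**
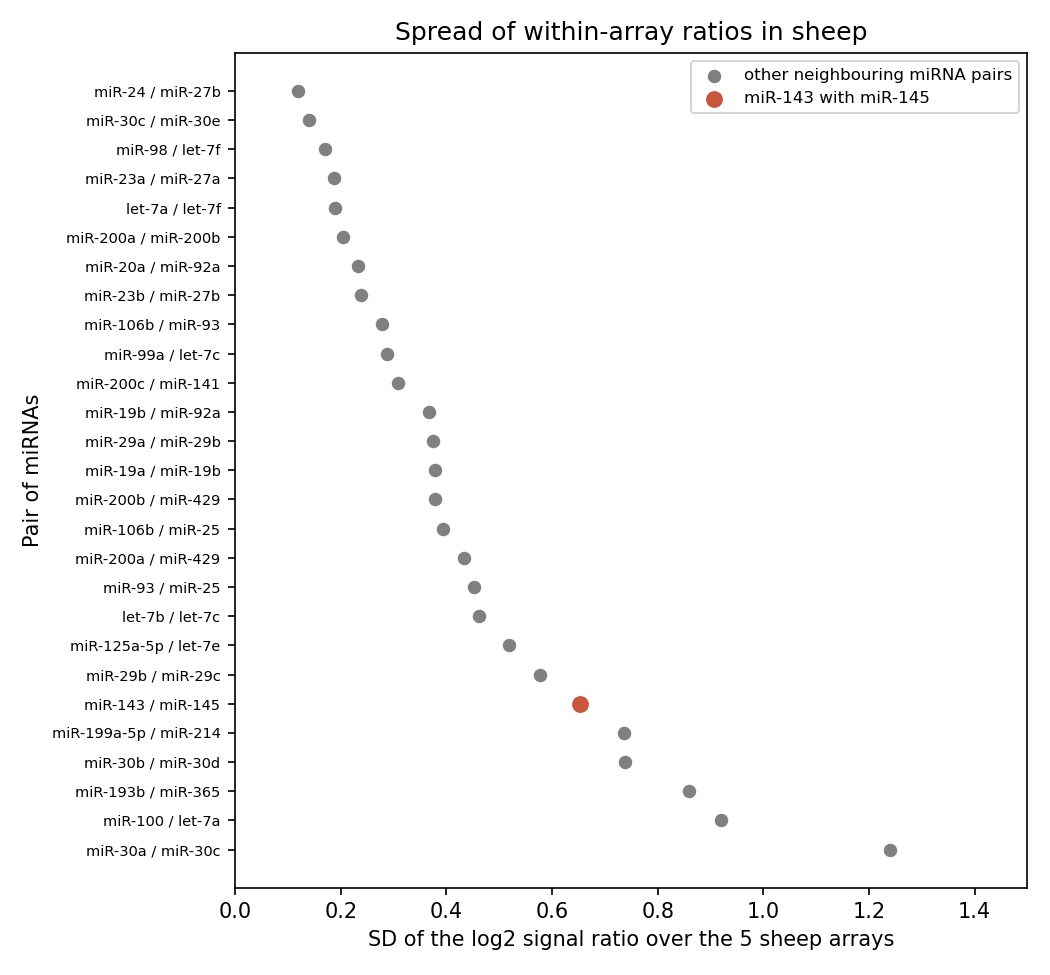
SD of the log2 signal ratio over the 5 sheep arrays (x axis) for 27 pairs of neighbouring miRNAs (y axis), with miR-143 and miR-145 in red. Their SD of 0.653 is exceeded by 5 of the 26 other pairs.

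Likeness to a member was measured as the SD of the log2 difference from it, among the 74 miRNAs above the floor on all 10 arrays. miR-145 itself was at the floor on 5 of the 10, which limits what this measure can show for it, and no test was made. For miR-145 over the 10 arrays, the nearest were miR-140* (0.394), the other strand of a miRNA known from cartilage, then miR-26a (0.428), miR-101a (0.463), miR-205 (0.477), a miRNA of basal epithelium, and miR-30d (0.605). miR-143 came 6th at 0.642. Over the sheep arrays alone, miR-140* stayed nearest at 0.110 and miR-143 came 8th at 0.628. The SD also counts a difference in the size of a shared change. The correlation of miR-145 with miR-143 was 0.984 over the sheep arrays and 0.767 over all 10. For the 5 nearest in sheep it was 0.996 (miR-140*), 0.992 (miR-26a), 0.968 (miR-101a), 0.929 (miR-29a) and 0.915 (miR-205). For miR-143 over 10 arrays the nearest were miR-30d (0.383), miR-30e (0.424), miR-193 (0.460), miR-24 (0.465) and miR-10b (0.482), and 12 of 73 candidates lay closer to it than miR-145 did. The median over the candidates was 0.832. On the sheep arrays alone 28 of 73 candidates lay closer to miR-143 than miR-145 did, with a median of 0.775.

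The 5 miRNAs nearest to miR-145 were picked on these same arrays, so a shared peak follows partly from that choice. Of them, miR-205 and miR-26a had their highest value on the arrays where the miR-145 signal was highest in both species. Scaled miR-205 was 0.464, 0.462, 0.940, 0.191 and 0.230 in sheep, against 0.115, 0.291, 0.501, 0.177 and 0.136 in mouse. The other basal epithelial miRNA listed, miR-203, did not share the sheep peak. It was under the floor on every sheep array and not detected at gestation day 64 or in lactation. Its highest mouse value was at gestation day 17 (0.0520). Scaled miR-26a was 2.51, 3.34, 6.28, 1.76 and 2.22 in sheep, against 1.04, 0.980, 1.18, 1.05 and 1.14 in mouse, a narrow range in mouse. miR-140* was 0.0605, 0.0995, 0.243, 0.0392 and 0.0569 in sheep, against 0.0629, 0.0533, 0.0478, 0.0365 and 0.0362 in mouse, so it shared the sheep peak and not the mouse one. miR-101a and miR-30d also shared the sheep peak only, with their highest mouse values at lactation day 10 (0.173 and 0.211). In bulk tissue, fewer cells of a type and less RNA per cell cannot be told apart. The summed scaled signal of 5 luminal epithelial miRNAs of the miR-200 family was 4.82, 4.28, 2.92, 11.4 and 9.95 in sheep, lowest at day 64, where miR-145 was highest. In mouse the sum was 1.68, 2.73, 6.04, 10.6 and 14.1, lowest in virgin and not at gestation day 17, where the miR-145 signal was highest. The part of these miRNAs in the miR-145 course was not tested.

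**Figure D4:**
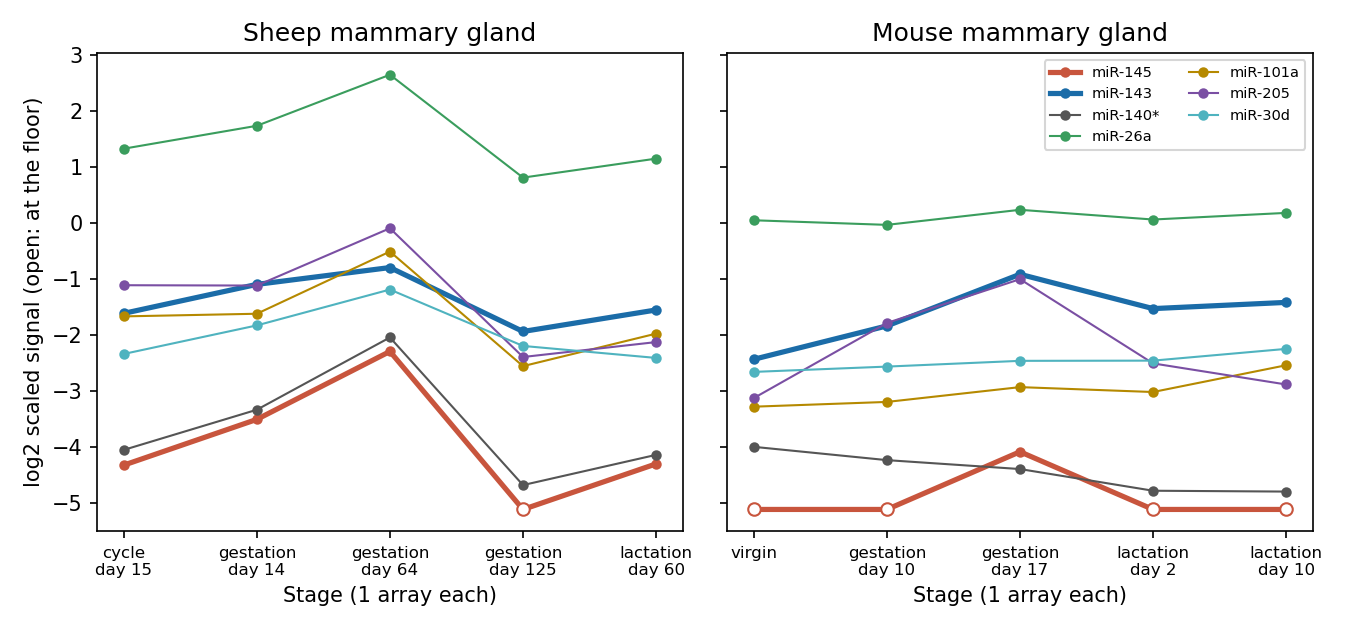
log2 scaled signal (y axis) of miR-145, miR-143 and the 5 miRNAs nearest to miR-145 by stage (x axis), sheep left and mouse right. Open points lie at the floor. miR-145, miR-143 and all 5 others are highest in sheep at gestation day 64, and in mouse miR-205 and miR-26a are highest at gestation day 17 as miR-145 and miR-143 are. In mouse miR-140*, miR-101a and miR-30d are highest at other stages. The 5 were picked for their likeness to miR-145 on these arrays.

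Other miRNAs of smooth muscle and of other cell types were counted from lists. Of 11 smooth muscle-associated miRNAs, all tested and including both members, 2 were higher in sheep than in mouse, miR-23b by 1.31 and miR-26a by 1.39, 1 was lower, miR-10a at -1.64, and 8 did not pass in limma, with a median of 0.27 against 0 for all tested miRNAs. Of all 213 miRNAs, 8.45% were called higher and 13.1% lower in sheep. Between lactation and gestation 0 of the 11 passed in limma (1 at an unadjusted p under 0.05, against 34 of all 213), with a median of -0.25 against -0.0018 for all tested miRNAs. Fibroblast and stromal miRNAs, 4 tested, had a median of -2.00 in lactation against gestation and 0 adjusted calls, with 4 of 4 at an unadjusted p under 0.05, against the same 34 of 213. Their summed signal was 2.81, 2.33, 2.14, 0.984 and 0.470 in sheep, against 4.04, 4.08, 1.70, 0.841 and 0.428 in mouse. The sums were lowest in lactation in both species. The summed scaled signal of 4 striated muscle miRNAs, of which miR-1 and miR-133a are also on the smooth muscle list, was 1.94 in mouse virgin, 0.753 at mouse gestation day 17 and at most 0.0175 on the other mouse arrays, and at most 0.0912 on any sheep array. The part of striated muscle in the mouse values was not tested.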

How the data were processed

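Mammary gland RNA of 5 sheep and 5 CD1 mouse arrays was analysed. Per the labels' protocols, RNA had an integrity number of at least 6 and 100 ng was labelled with Cy3. The scanner files the authors deposited hold intensity values on a linear scale, background-subtracted and detrended within each array but not normalized between arrays, per the file headers. The headers give Feature Extraction 10.5.1.1, whereas the submitters' processing notes give 9.5. The deposited value table, also an intensity, equalled Agilent's total signal times 1 constant per array (within 0.1% for 98.6% to 100% of miRNAs with a total above 50). Its column medians were -0.603, 0.303, 0.26, -3.94 and -2.80 in sheep and -11.4, -5.23, 0.76, -2.35 and -11.6 in mouse, in stage order, and the basis of the constants is unknown.

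Spots flagged as outliers were left out, 0 spots were saturated, and spots were averaged per probe and probes per miRNA. Each array was divided by its 75th percentile over the 94 miRNAs detected on all arrays, values under the floor (0.0290) were raised to it, and log2 was taken. For the floor, the 5th percentile over detected miRNAs was found on each array after scaling, and the highest of the 10 was used. The within-array ratio of miR-145 to miR-143 used signals without the floor.

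Levels were compared with limma 3.58.1 under R 4.3.3 (lmFit, eBayes) on 213 miRNAs detected on at least 3 arrays, with species and stage class as terms (6 residual degrees of freedom), or 6 means for the interaction (4), and Benjamini-Hochberg adjustment. Ratios were compared by exact permutation tests. Arrays of different days served as replicates of a stage class, so p-values measure the spread between those arrays. Scripts were tested on simulated data. The members, the lists and the comparisons were chosen with earlier results of these data known. Named miRNAs were the members, the 5 nearest to each, the pairs with the smallest and largest SD, miR-199a-5p with miR-214, and up to 3 examples per list in list order. miR-23b, miR-26a and miR-10a on the smooth muscle list were named after their values were seen. Alternatives were other scalings, backgrounds, probe summaries, floors, filters, slides and single arrays left out. The normexp background was run with an offset of 50 intensity units, which compresses differences in dim signal. Columns without a sample numbered 0.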

Additional observations from a re-analysis of the deposited data

How the results depend on the processing

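Over the 12 results on levels and ratios, 226 of the alternative values kept direction and side of the threshold, 35 changed sign and 3 kept direction but no longer passed. Of those that changed sign, the sheep minus mouse ratio with normexp also no longer passed (exact permutation p = 0.778). The miR-145 difference between sheep and mouse ran from 0.0011 with normexp to 2.13 without scaling. None of the level results that changed sign had an adjusted p under 0.05. With the 75th percentile of all miRNAs, miR-143 lactation minus gestation was 0.0403 and the species interaction 0.69 for miR-143 and 0.52 for miR-145, and with quantile normalization the miR-145 interaction was 0.10. Without scaling, lactation minus not pregnant was -0.62 for miR-143 and -0.58 for miR-145 and the miR-143 interaction 0.38, and the median over all miRNAs shifted, by 0.69 between sheep and mouse, -0.67 between lactation and gestation and -0.78 between lactation and not pregnant. With the authors' value table miR-143 was 0.17 (lactation minus gestation), -0.0758 (lactation minus not pregnant), -0.25 (gestation minus not pregnant) and 0.35 (interaction), and miR-145 was 0.0024 (lactation minus gestation) and 0.0423 (interaction). A floor 4 times lower gave a miR-145 interaction of 0.19. With slide as a term miR-143 sheep minus mouse was -0.22, its interaction 0.28, miR-145 lactation minus not pregnant -0.35 and its interaction 0.37. On slide 1 alone these were -0.23, 0.28, -0.11 and 0.37, and miR-143 lactation minus not pregnant was -0.0385. The cause was not tested.

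With normexp the ratio was -0.0690 between sheep and mouse and 0.29 between lactation and gestation. With alternatives chosen after seeing the data, the sheep minus mouse ratio was 0.14 with dim ratios at their upper bounds (0.0460 for lactation minus gestation), 0.77 with the floor and 1.23 on arrays with both miRNAs detected, which leaves fewer arrays. Leaving out 1 array at a time gave 1.31 to 1.80 for that ratio and -0.76 to -0.32 for lactation minus gestation. For miR-143 it gave 0.04 to 0.41 (sheep minus mouse), -0.29 to 0.0857 (lactation minus gestation), 0.14 to 0.92 (lactation minus not pregnant), 0.31 to 1.095 (gestation minus not pregnant) and -0.64 to 0.28 (interaction). For miR-145 it gave 0.57 to 1.22, -0.89 to -0.29, -0.0317 to 0.0855, 0.26 to 0.97 and -0.89 to 0.52 in the same order. Without sheep lactation replicate 1 the interaction and the ratio between lactation and gestation had no value. Calls over all miRNAs ranged from 14 to 95 for sheep minus mouse (46 as reported), 0 to 24 for lactation minus gestation (6), 0 to 29 for lactation minus not pregnant (8), 0 to 7 for gestation minus not pregnant (1) and 0 to 19 for the interaction (2). No paired analysis was possible because animals are not numbered in the labels.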

Other observations

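Within each species, the miRNAs nearest to miR-143 were not the same. Over the 5 sheep arrays they were miR-152 (SD of the log2 difference 0.164), miR-140 (0.171), miR-24 (0.222), miR-30d (0.254) and miR-27b (0.289). Over the 5 mouse arrays they were miR-30c (0.231), miR-142-3p (0.233), miR-27b (0.306), miR-19b (0.312) and miR-30a* (0.322). Only miR-27b was among the nearest 5 in both species, and with 5 arrays each these are descriptions with no test.

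In the authors' deposited table miR-143 read 384, 311, 396, 413 and 488 in sheep, against 455, 379, 297, 265 and 457 in mouse, in stage order. miR-145 in the authors' deposited table read 58.7, 58.5, 140, 42.8 and 72.7 in sheep, against 17.0, 24.1, 33.0, 15.1 and 20.6 in mouse, with the highest values at sheep gestation day 64 and mouse gestation day 17.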
